A study of Mus musculus with 6 samples.

Results

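The genes Olig1, Olig2, Sox10, Pdgfra, Cspg4, Nkx2-2, Gpr17, Lhfpl3 and Bcas1, which mark oligodendrocyte precursors leaving the ventral forebrain, were followed in the forebrain of mouse embryos. These 9 genes were chosen by symbol as known markers of the lineage, with earlier results of these data known, and all 9 were found among the 33084 genes of the count table. RNA of whole microdissected forebrain at embryonic day 15.5 was sequenced from 3 mutant and 3 control embryos, 1 library each as far as the labels tell. Mutants carried the genotype Dyrk1a<DlxCre/+>, which inactivates the kinase gene Dyrk1a conditionally within the Dlx5 domain. With 1 wild-type allele written in the genotype, 1 copy is taken to remain there. Controls were labelled wt and were of the same age. The labels do not say whether controls carried the Cre driver or the conditional allele, or whether embryos came from separate litters. P-values therefore measure the spread between these libraries.

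Oligodendrocyte precursors arise from ventral progenitors that respond to Sonic hedgehog, spread into the whole forebrain, divide under the growth factor PDGF-AA and later make myelin. OLIG2 and NKX2-2 are already made by neural progenitors, whereas SOX10 and the PDGF receptor alpha mark cells committed to the lineage, and GPR17 and BCAS1 mark precursors on the way to differentiation. Dlx genes, which define the targeted domain, favour GABAergic neurons over oligodendrocyte precursors among shared ventral progenitors. The comparison asks how conditional inactivation of Dyrk1a in that domain, under a heterozygous genotype, bears on the transcriptome of the forebrain.

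The mutant libraries held between 25360030 and 28339650 counts and the control libraries between 24646616 and 38315004. The 9 genes together took 2463 to 3605 counts in mutants and 3205 to 4090 in controls, so single genes rest on between 13 and 2056 reads per library. The forebrain label fitted the markers: Neurod6, a transcription factor gene of cortical projection neurons, lay between 225 and 237 CPM (counts-per-million, scaled by TMM) in mutants and between 211 and 259 CPM in controls. Dyrk1a itself, at chr16:94570010-94695517 on GRCm38, had 186, 159 and 182 CPM in the 3 mutants and 169, 183 and 180 CPM in the 3 controls. These ranges overlapped, and edgeR gave a log2 fold change (mutant over control) of -0.02 ± 0.09 (SE). The count covers the whole gene in all cells of the forebrain, so it cannot check the genotype labels.

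Scaled to the length of the exons (transcripts-per-million, TPM), Pdgfra, Olig1, Olig2 and Lhfpl3 had the highest mean levels of the 9. Pdgfra averaged 16.5 ± 2.10 TPM in mutants and 18.7 ± 4.09 TPM in controls (SD, n = 3 each). Olig1 averaged 14.7 ± 6.53 TPM in mutants and 12.5 ± 6.61 TPM in controls, and Olig2 averaged 13.9 ± 1.06 TPM in mutants and 13.7 ± 0.99 TPM in controls. These neighbours in the order did not differ beyond their spread. Lhfpl3 followed with 11.1 ± 2.78 TPM in mutants and 12.7 ± 3.51 TPM in controls, and Cspg4 stood between these and the rest with 6.08 ± 0.82 TPM in mutants and 6.02 ± 0.99 TPM in controls. The lowest levels were those of Gpr17, with 2.12 ± 1.02 TPM in mutants and 2.34 ± 1.24 TPM in controls, and then Nkx2-2, Bcas1 and Sox10, whose values ran from 0.48 to 1.87 TPM over the 6 libraries and overlapped each other. Levels per length are also shaped by short abundant RNAs in each library, so the comparison of genotypes below uses CPM.

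**Figure D1:**
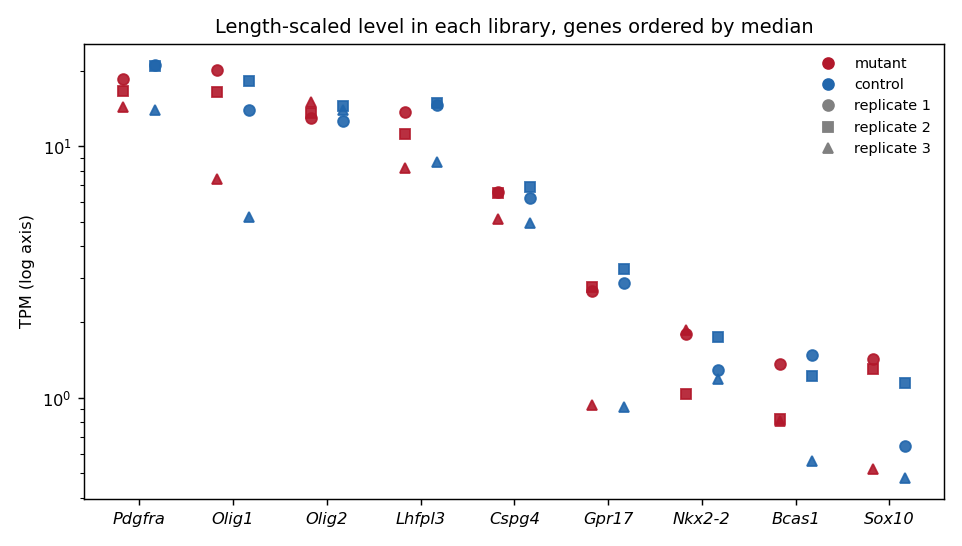
Level per exonic length of each of the 9 genes (TPM, log axis) in every library, mutants in red to the left of controls in blue, with a marker for each replicate number. Pdgfra, Olig1, Olig2 and Lhfpl3 lie above the other genes in every library. In replicate 3 Olig1 drops to 7.39 TPM in the mutant and 5.25 TPM in the control, still above Cspg4 at 5.14 and 4.94 TPM. Olig2 stays at 15 TPM in the mutant and 13.9 TPM in the control.

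The 2 bHLH transcription factors of the lineage sit side by side. Olig2 (ENSMUSG00000039830, chr16:91225457-91228677, forward strand), which specifies the lineage, lies 41.1 kb from Olig1 (ENSMUSG00000046160, chr16:91269772-91271933, forward strand), which acts in later maturation. Both lie on the chromosome of Dyrk1a, Olig1 at a distance of 3.3 Mb. Olig1 had 13.3, 12.7 and 4.83 CPM in mutant replicates 1, 2 and 3, against 8.78, 11.5 and 3.69 CPM in control replicates 1, 2 and 3. The replicate 3 library was the lowest of each genotype, and the groups overlapped. Olig2 had 10.0, 12.3 and 11.5 CPM in the mutants and 9.26, 10.7 and 11.4 CPM in the controls. Olig2 was nearly even over all 6 libraries, so the ratio of Olig2 to Olig1 counts was 0.754, 0.966 and 2.37 in the mutants and 1.05, 0.933 and 3.10 in the controls. In replicate 3 of both genotypes Olig2 thus exceeded Olig1, whereas in the other 4 libraries the ratio stayed between 0.754 and 1.05.

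Sox10 and Nkx2-2 were the scarce transcription factors of the set. SOX10 drives the myelin programme and is also made by neural crest. Sox10 (ENSMUSG00000033006, chr15:79154908-79165240, reverse strand) had 1.34, 1.42 and 0.479 CPM in the mutants and 0.569, 1.01 and 0.474 CPM in the controls, resting on 13 to 38 reads per mutant library and 18 to 25 per control library. Mutant replicates 1 and 2 stood above the controls and mutant replicate 3 stood among them. NKX2-2 is made by ventral progenitors of the neural tube and later times the differentiation of precursors. Nkx2-2 (ENSMUSG00000027434, chr2:147177546-147194243, reverse strand) had 1.58, 1.06 and 1.62 CPM in the mutants and 1.08, 1.46 and 1.11 CPM in the controls. Its groups overlapped, and its lowest library was mutant replicate 2.

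Pdgfra, Cspg4 and Lhfpl3 encode membrane proteins of the precursors. Pdgfra (ENSMUSG00000029231, chr5:75152292-75198215, forward strand), the receptor for PDGF-AA, had 57.0, 59.4 and 43.5 CPM in the mutants and 61.6, 61.2 and 45.5 CPM in the controls. Cspg4 (ENSMUSG00000032911, chr9:56865033-56899870, forward strand), which encodes the proteoglycan NG2, had 24.2, 27.6 and 18.5 CPM in the mutants and 21.7, 23.9 and 19.1 CPM in the controls. In both genes the groups overlapped and replicate 3 was the lowest library of each genotype. Lhfpl3 (ENSMUSG00000106379, chr5:22746059-23275597, forward strand), a tetraspan membrane protein gene used as a precursor marker, had 13.5, 12.8 and 7.97 CPM in the mutants and 13.7, 13.9 and 9.07 CPM in the controls. Replicate 3 was again the lowest of each genotype. Lhfpl3 shares its strand with the tested genes 6030443J06Rik and Gm21846 inside its span, so the split of reads among these is uncertain. Pdgfra is also made by meningeal fibroblasts and Cspg4 by pericytes, and in RNA of bulk tissue fewer cells of a type and less RNA per cell cannot be told apart.

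The 2 markers of precursors near differentiation differed in how far they varied. Gpr17 (ENSMUSG00000052229, chr18:31942997-31949636, reverse strand), a receptor that holds precursors back from maturing, had 4.22, 5.12 and 1.48 CPM in the mutants and 4.32, 4.90 and 1.55 CPM in the controls. The groups overlapped almost entirely, and replicate 3 was the lowest library in both. Bcas1 (ENSMUSG00000013523, chr2:170346991-170427845, reverse strand), a protein of early myelinating cells, had 1.58, 1.10 and 0.922 CPM in the mutants and 1.62, 1.34 and 0.685 CPM in the controls, from 25 to 54 reads per library. Gpr17 overlaps Lims2 on the opposite strand, and whether counting used the strand was not given in the sources used here. Lims2 had 184 counts over the 6 libraries against 614 for Gpr17.

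**Figure D2:**
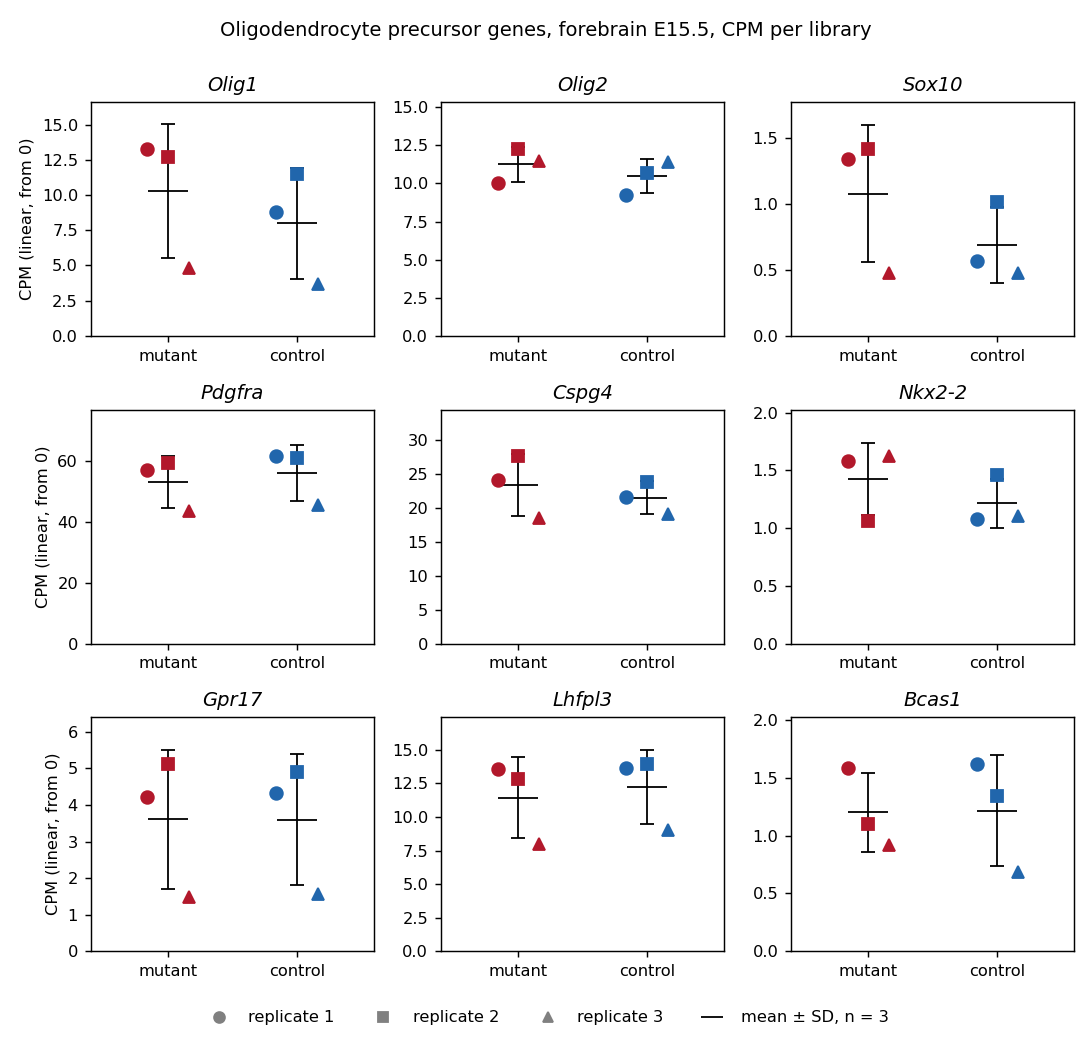
CPM of each gene per library on linear axes from 0, mutants in red left of controls in blue, marker shape for the replicate number, black line for the mean and bars for the SD of 3 libraries. The genotypes overlap in all 9 genes. Replicate 3 is the lowest library of both genotypes in 7 genes, all but Olig2 and Nkx2-2.

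None of the 9 genes differed between genotypes beyond the spread of the libraries. By edgeR's quasi-likelihood test, adjusted after Benjamini and Hochberg over 19616 tested genes, 0 of the 9 were called (adjusted p = 0.9999 for each), beside 0% of all tested genes. At an unadjusted p under 0.05 there were also 0 of the 9, beside 1.92% of all tested genes, and DESeq2 and limma-voom likewise gave 0 of the 9 at that level. With sample weights limma-voom gave 1 of the 9, Sox10, at 0.92 on the log2 scale (unadjusted p = 0.0198, adjusted p = 0.444). That fit put 1909 of the 19616 tested genes at an unadjusted p under 0.05. In 0 of the 9 did every mutant library lie above every control library, beside 3.19% of tested genes, and in 0 did every mutant lie below, beside 3.7%. Log2 fold changes were above 0 in 7 of the 9 and below 0 in 2, with a median of 0.10, against -0.01 over all tested genes, of which 52.5% lay below 0. These counts describe the 9 genes and carry no test.

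The precision of the comparison differed widely among the genes. Olig2 had a log2 fold change, mutant over control, of 0.10 ± 0.14 (SE), with a 95% interval from -0.21 to 0.42, or from 0.864-fold to 1.34-fold. Pdgfra had -0.07 ± 0.15 (0.747-fold to 1.21-fold) and Cspg4 had 0.12 ± 0.16 (0.85-fold to 1.39-fold). A change of 2-fold lies outside these 3 intervals. Lhfpl3 had -0.09 ± 0.23, Nkx2-2 had 0.24 ± 0.25 and Bcas1 had 0.00 ± 0.35, and their intervals also ended inside 2-fold in both directions. Sox10, Olig1 and Gpr17 were measured less sharply. Sox10 had 0.69 ± 0.45, with an interval from 0.797-fold to 3.27-fold. Olig1 had 0.38 ± 0.45 (0.643-fold to 2.62-fold), and Gpr17 had 0.02 ± 0.49 (0.468-fold to 2.2-fold). A 2-fold rise in mutants lies inside these 3 intervals, and that of Gpr17 also holds a 2-fold fall. The standard error of Olig1 was larger than that of 99.6% of the 3987 tested genes within 2-fold of its CPM, and that of Gpr17 larger than that of 99.5% of 3314 such genes, whereas Olig2 stood at 39.5% and Nkx2-2 at 36.5%.

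**Figure D3:**
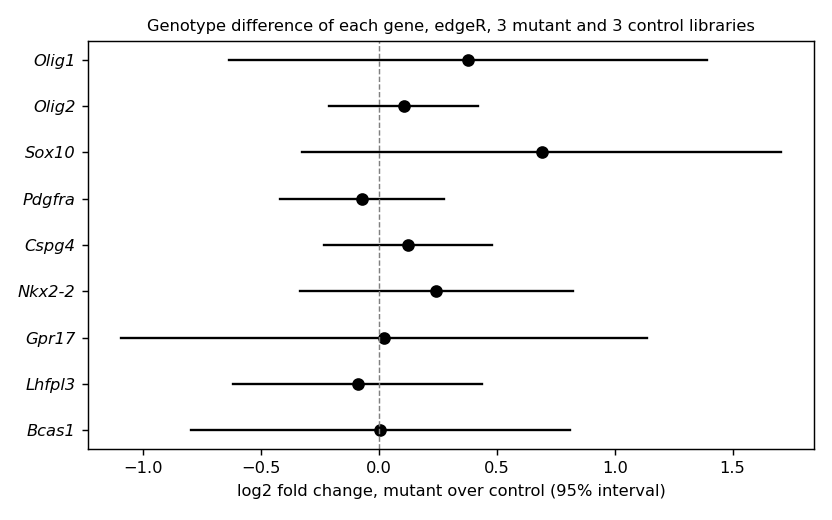
Log2 fold change of each gene, mutant over control, with its 95% interval from edgeR's fit of 3 mutant and 3 control libraries. All 9 intervals hold 0, and those of Olig1, Sox10 and Gpr17 are the widest of the 9.

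The spread of Olig1 and Gpr17 lay between replicate 3 and the other libraries, in mutants as in controls. Over all tested genes the first principal component, with 37.4% of the variance, set replicate 3 of both genotypes apart from the other 4 libraries, and the labels do not say what a replicate number stands for. On the log2 CPM scale Gpr17 was lower in replicate 3 than in the mean of replicates 1 and 2 by a difference of -1.61 in mutants and -1.53 in controls. Olig1 differed by -1.42 in mutants and -1.43 in controls. Of 16748 tested genes averaging at least 1 CPM, 68 (0.406%) lay lower by more than 1 log2 unit in replicate 3 of both genotypes, and Gpr17 and Olig1 were the 14th and the 19th lowest of these. These values are descriptions without a test, since the division was read from the same libraries.

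The rest of the set was graded between these 2 genes and the progenitor factors. Lhfpl3 differed by -0.72 in mutants and -0.60 in controls, Bcas1 by -0.49 and -1.03, Pdgfra by -0.42 and -0.43, and Cspg4 by -0.48 and -0.25. Sox10 differed by -1.40 in mutants and -0.61 in controls. Olig2 went the other way, at 0.05 in mutants and 0.20 in controls, and Nkx2-2 was mixed, at 0.31 and -0.17. In all, 7 of the 9 genes were lower in replicate 3 of both genotypes, where 31.1% of all tested genes were. On the log2 CPM scale Olig1 lay higher in mutants by 0.594 within replicate 1 and 0.148 within replicate 2, a mean of 0.37. Within replicate 3, with 1 library per genotype, it lay 0.38 higher. Fitted with edgeR on replicates 1 and 2 alone, Olig1 had 0.37 (unadjusted p = 0.0269, adjusted p = 0.62). Sox10 had 0.84 in the same fit (unadjusted p = 0.0297, adjusted p = 0.623). Neither was called. This fit was added after replicate 3 was seen to stand apart, so its p-values are descriptions. In it 1538 of the 19616 tested genes had an unadjusted p under 0.05. For Sox10 the values within replicates 1 and 2 and within replicate 3 were 0.80 and 0.01, for Gpr17 0.01 and -0.07, and for Olig2 0.16 and 0.00. A term for the replicate 3 libraries in edgeR's fit, added after seeing the data, narrowed the intervals of Olig1 and Gpr17. Olig1 then had 0.37 ± 0.13 (SE), or 1.06-fold to 1.58-fold, and was not called (unadjusted p = 0.016, adjusted p = 0.969). Gpr17 had -0.00 ± 0.16, or 0.781-fold to 1.27-fold. The interval of Sox10 ran from 0.939-fold to 2.5-fold. Because the term was chosen from the spread of these same libraries, these intervals set no bound on the change of any gene. In this fit 845 of the 19616 tested genes had an unadjusted p under 0.05.

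Markers of cell states moved with the same libraries. The 10 proliferating cell markers were all higher in replicate 3 of both genotypes, with a median difference of 0.66 in mutants and 0.70 in controls (log2 CPM). The 10 synapse markers were all lower, at -0.52 in mutants and -0.36 in controls. Radial glia markers stood at 0.34 and 0.35, with 6 of 8 higher in both. The 9 embryonic red cell markers were divided, 5 lower and 4 higher in replicate 3 of both genotypes, with a median of -0.00 in mutants and -0.25 in controls. Among the 4, Hbb-y, an embryonic globin of primitive red cells, had 322 CPM in mutant replicate 3 and 321 CPM in control replicate 3, against 27.8 to 42.5 CPM in the other 4 libraries. The part of these cells in the level of the precursor genes was not tested.

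**Figure D4:**
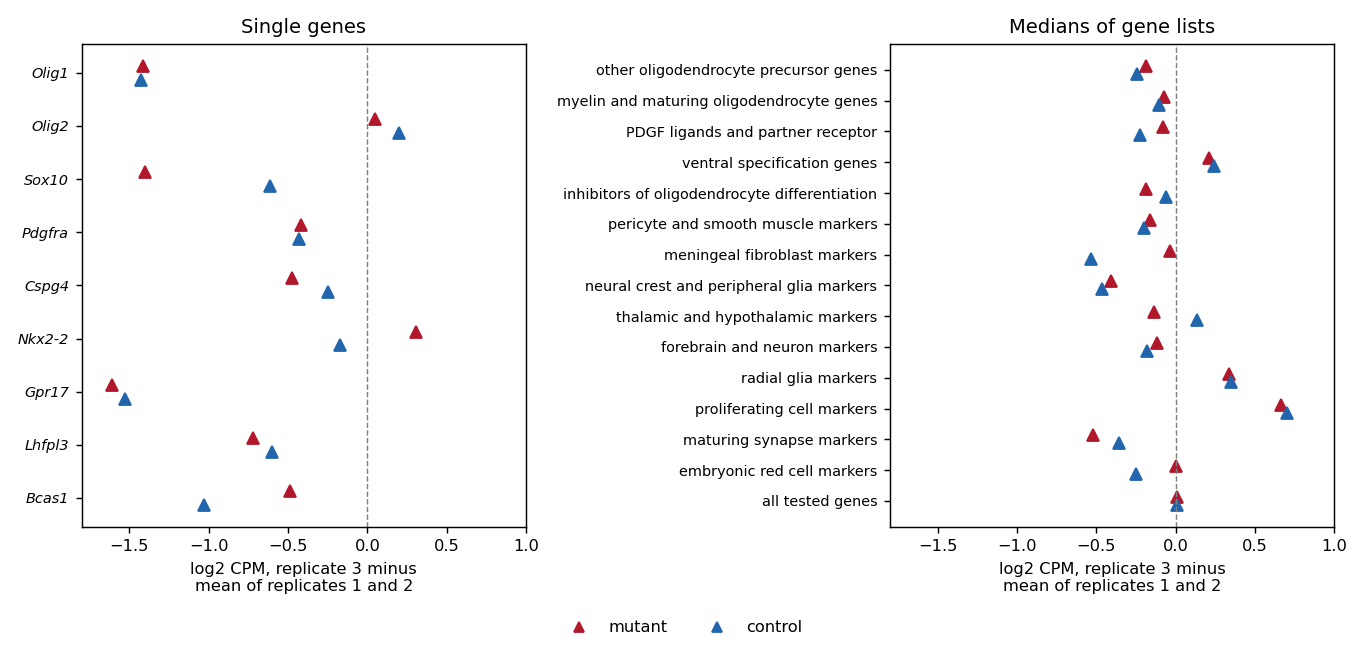
Difference of log2 CPM between replicate 3 and the mean of replicates 1 and 2, mutants in red above controls in blue, for the 9 genes on the left and as medians of other gene lists on the right. Gpr17 and Olig1 lie near -1.5 in both genotypes, Olig2 lies at 0.05 and 0.20, and the proliferating cell list lies at 0.66 and 0.70.

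None of the other lineage genes was called between genotypes either. Of 23 further precursor genes 20 were tested, 10 lay above 0 and 10 below, 0 were called in either direction, and the median log2 fold change was 0.01. The smallest p belonged to Nkx6-2, a homeobox gene of progenitors and oligodendrocytes, with 0.88, 0.91 and 1.33 CPM in mutants and 0.60, 0.45 and 0.74 CPM in controls. Every mutant library exceeded every control library, but Nkx6-2 was not called (0.77 ± 0.30, unadjusted p = 0.0315), and it overlaps the more abundant Inpp5a on the opposite strand. The complement-like gene C1ql1 had 0.57 ± 0.31, and Bcan, which encodes the proteoglycan brevican, had 0.23 ± 0.15. C1ql1 overlaps Gm26668 on the opposite strand. By replicate, 14 of the 20 were lower in replicate 3 of both genotypes and 4 were higher. Tnr, encoding the matrix protein tenascin-R, differed by -0.84 in mutants and -0.73 in controls and Luzp2 by -0.50 and -0.96, while Sox6, a SOX factor of progenitors and precursors, stood at 0.46 and 0.33 and the proteoglycan gene Vcan at 0.25 and 0.25. Tnr and Luzp2 hold smaller tested genes of their own strand, and Vcan overlaps Gm4117 on the opposite strand.

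None of the myelin genes was called. Of 20 genes 16 were tested, 6 lay above 0 and 10 below, 0 were called, and the median was -0.05. Mog, Enpp6, Fa2h and Opalin, made by maturing oligodendrocytes, had at most 6 reads in any library and were not tested. Mbp, the myelin basic protein gene, whose locus is also transcribed outside the lineage, had 28.9, 28.9 and 29.2 CPM in mutants and 29.5, 27.2 and 28.5 CPM in controls. Unlike Gpr17, Mbp hardly varied between replicates. The smallest p in this list were those of Aspa at -0.35 ± 0.19, Cldn11 at 0.25 ± 0.14 and Mag at 0.50 ± 0.31 (log2, SE), none called.

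Among the signals that make and feed precursors no gene was called. PDGF ligands and receptors had 3 of 6 above 0, 0 called and a median of -0.00. Pdgfa, which encodes the ligand of the receptor alpha, averaged 9.10 ± 1.02 CPM in mutants and 7.83 ± 1.27 CPM in controls (SD, n = 3 each), or 0.22 ± 0.16 on the log2 scale (SE). Pdgfc had -0.18 ± 0.14 and Pdgfd 0.13 ± 0.25. Pdgfa overlaps 6330403L08Rik on the opposite strand. Among 14 genes of ventral specification 7 lay above 0, 0 were called, and the median was 0.00, with the smallest p for Lhx8 at 0.21 ± 0.14, Gsx1 at -0.37 ± 0.34 and Ptch1 at -0.10 ± 0.10. Shh, the ligand that induces Olig2 and Nkx2-2 in ventral progenitors, had 2.25, 1.69 and 2.84 CPM in mutants and 2.07, 3.00 and 2.64 CPM in controls, which overlapped. This list ran against the precursor genes by replicate, with 11 of 14 higher in replicate 3 of both genotypes and 1 lower. Of 10 genes whose products hold back oligodendrocyte differentiation 8 lay above 0, 0 were called, and the median was 0.14, with Id3 at 0.24 ± 0.11, Id1 at 0.36 ± 0.20 and Id4 at 0.20 ± 0.20.

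Other cells that make some of these markers were counted alongside. Pericyte and smooth muscle markers summed to 314 to 328 CPM in mutants and 309 to 328 CPM in controls, with 6 of 10 above 0 and 0 called. Pdgfrb, the pericyte receptor for PDGF-BB, had 48.0, 56.3 and 45.8 CPM in mutants and 53.5, 53.4 and 46.5 CPM in controls, so it too was lowest in replicate 3. Pericyte markers as a list differed by -0.16 in mutants and -0.20 in controls between replicate 3 and the others. Of the 10, 9 were lower in replicate 3 of both genotypes and 1, Notch3, was higher. Notch3, which enters the sums above, had 134 CPM in mutant replicate 3 and 138 CPM in control replicate 3. In the other libraries it had 90.3 to 97.1 CPM. Meningeal fibroblast markers summed to 503 to 555 CPM in mutants and 459 to 617 CPM in controls. Of the 9, 4 lay above 0 and 0 were called. By replicate they differed by -0.04 in mutants and -0.54 in controls, with 7 lower in both genotypes and 2 higher. Of 9 neural crest markers 3 were tested. The 9 summed to 4.17 to 11.9 CPM in mutants and 4.27 to 11.3 CPM in controls, with replicate 1 the highest of each genotype. Tfap2b alone gave 7.66 CPM in mutant replicate 1 and 8.87 CPM in control replicate 1, against 1.57 to 2.62 CPM in the other libraries. Erbb3 was also highest in replicate 1 of each genotype, but Tfap2a was lowest in control replicate 1. Foxd3, a transcription factor gene of early neural crest, had 12 reads over the 6 libraries. Thalamic and hypothalamic markers had 8 of 12 above 0, 0 called and a median of 0.29. They summed to 107 to 137 CPM in mutants and 111 to 126 CPM in controls. Of the remaining lists, forebrain and neuron markers had 6 of 10 above 0, radial glia 6 of 8, proliferating cells 9 of 10, synapse 4 of 10 and embryonic red cells 6 of 9, all with 0 called. The part of these cells in the level of the 9 genes was not tested.

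Short stretches of promoter are shown for Olig2 and Nkx2-2, even or mixed by replicate, and for Lhfpl3, lower in replicate 3. RefSeq promoters on GRCm38.p6 ran from 250 bases before to 50 after RefSeq's gene start. They were matched for 5 of the 9 genes: Olig2, Nkx2-2, Pdgfra, Cspg4 and Lhfpl3. Olig1, Gpr17, Sox10 and Bcas1 had no match, so Olig1 and Gpr17, with the largest differences by replicate, are not shown. The 3 motifs searched, on both strands, were CAGCTG, an E-box of the kind bHLH proteins bind, ACAAT, a core bound by SOX proteins, and TATAAA. These starts are not those of the GENCODE spans given above. RefSeq's start lies 93 bases inside the span of Olig2 and 7841 bases inside that of Nkx2-2. Matches of different motifs did not overlap. Capitals mark every match, ATTGT being ACAAT on the opposite strand, in windows of 30 bases at chr16:91225471-91225500 and chr16:91225530-91225559 (Olig2, forward strand), chr2:147186614-147186643 (Nkx2-2, reverse strand) and chr5:22745884-22745913 (Lhfpl3, forward strand).
Olig2, SOX core: caggaaaagcacATTGTtcccgccccccgc
Olig2, TATAAA: cctccacccagcTATAAAaaccagcggaac
Nkx2-2, SOX core: tccccaaaacccACAATttcacatctgcaa
Lhfpl3, 2 E-boxes: gctcgcaggcttCAGCTGcagCAGCTGcag
The matches begin 67 and 8 bases before RefSeq's start of Olig2, 229 before that of Nkx2-2, and 158 and 149 before that of Lhfpl3. The SOX core was also found at the far end of the Cspg4 promoter, and Pdgfra held none of the 3 motifs in this window. Of 32851 promoters of this length 16.3% held CAGCTG, 31.0% ACAAT and 13.6% TATAAA. The SOX core was held by Olig2 and Nkx2-2, even or mixed by replicate, and by Cspg4, lower in replicate 3.

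Among 16602 tested genes outside the lists averaging at least 1 CPM, those whose centred log2 CPM profile over the 6 libraries lay nearest to the median profile of the 9 genes were AW551984, Nbl1, Fam84a, Kcnd2 and Gas6. The root mean square difference was 0.0365 log2 units for AW551984, 0.0385 for Nbl1, 0.0451 for Fam84a, 0.0456 for Kcnd2 and 0.0464 for Gas6. The 9 genes themselves lay farther from their median profile, from 0.0997 for Pdgfra to 0.508 for Gpr17. With 6 libraries of which 2 stand apart, many genes share such a profile. Kcnd2, a potassium channel gene, overlaps Gm42583 on its own strand.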

How the data were processed

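Libraries of total RNA depleted of ribosomal RNA, from 6 forebrains, were made with a strand-marking TruSeq kit and read single-end, per the labels' protocols, which also call the molecule polyA RNA. The submitters' design text and processing notes name HISAT2 on GRCm38 release 93, SAMtools 1.9 and HTSeq 0.9.1; strand and overlap settings were not given in the sources used here. Raw read counts per Ensembl gene were deposited by the authors, 1 column per library. GENCODE M21 on GRCm38 gave symbols for 32888 of 33084 identifiers, exon lengths and GC content.

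filterByExpr (count minimum 10, total minimum 15) kept 19616 genes, among them all 9 of the set. Genotypes were compared with edgeR 4.0.16 in R 4.3.3 (quasi-likelihood F test, robust, TMM scaling, no covariate), with Benjamini-Hochberg adjustment at 0.05. Log2 CPM used a prior count of 2. Alternatives were DESeq2 1.42.0, limma-voom 3.58.1 with and without sample weights, DESeq2 size factors, no filter, a mean CPM of at least 1, each library left out, a replicate block, and GC and length trends removed with mgcv 1.9.3; replicates 1 and 2 alone and a term for replicate 3 were added after seeing the data. The test was checked on simulated data. The 9 genes and the other lists were chosen with earlier results of these data known. Genes named outside the 9 were up to 3 of smallest p from lists, Mbp, Pdgfa, Pdgfrb, Shh and the 5 of nearest profile; Neurod6, Hbb-y, Tnr, Luzp2, Sox6, Vcan and genes named for few reads were chosen after their values were seen. Some genes of these lists are not reported here. Figures were drawn with matplotlib 3.10.9.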

Additional observations from a re-analysis of the deposited data

How the results depend on the processing

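Over 17 alternatives 0 of the 9 genes were called. All tested genes gave 0 calls in 16 of these and 3 with replicates 1 and 2 alone, none of them among the 9. Genes at an unadjusted p under 0.05 numbered 376, from 176 to 1000 when 1 library was left out, 765 with the replicate block and 1909 with sample weights. Whether the replicate numbers pair the libraries is not given by the labels. Deviations of same-numbered libraries correlated at 0.241, 0.0711 and 0.355 for replicates 1, 2 and 3. Mutant replicate 1 correlated best with control replicate 2 (0.348), and mutant replicates 2 and 3 best with the control of their own number. With so few libraries these values cannot settle a pairing. With the block Olig1 had 0.38 (unadjusted p = 0.0169, adjusted p = 0.987, edgeR) and Gpr17 -0.0088; with the block and the GC and length trend removed Olig1 had 0.22 and Gpr17 -0.0136. Without mutant replicate 3, Sox10 had an unadjusted p of 0.0161 (adjusted p = 0.973, edgeR). Adjusted p over all alternatives was 0.62 or more for Olig1 and 0.444 or more for Sox10, whose fold changes stayed above 0 (0.03 to 0.73 and 0.45 to 1.05). Signs changed in 17 of 152 values, none called: Gpr17 with sample weights (-0.0614) and a term for replicate 3 (-0.0045); Bcas1 with sample weights (-0.0807), without the GC and length trend (-0.0041) and with replicates 1 and 2 alone (-0.14). With 1 library left out, Gpr17 ran from -0.35 to 0.40, Bcas1 from -0.30 to 0.29, Pdgfra from -0.20 to 0.058, Lhfpl3 from -0.27 to 0.12, Cspg4 from -0.012 to 0.27, Olig2 from 0.02 to 0.19 and the median of the 9 from 0.03 to 0.20. With the GC and length trend removed that median was 0.0152, against 4e-04 over all genes, and Olig2 had 0.0152. The cause of these changes was not tested. Sox10 has no value at a mean CPM of at least 1. Sox10 rests on as few as 13 reads in 1 library, and its SE of 0.45 was larger than that of 90.9% of 3698 genes within 2-fold of its CPM, whose median was 0.32.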

Other observations

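Of the 68 genes that lay lower by more than 1 log2 unit in replicate 3 of both genotypes, 3 beside Gpr17 and Olig1 are given here as examples, named after their values were seen. Ptgds, a prostaglandin synthase gene of meninges and glia, was the lowest, with 29.5, 24.2 and 2.32 CPM in mutants and 17.5, 22.8 and 4.48 CPM in controls. Dio2, the thyroid hormone activating deiodinase gene, had 3.66, 4.13 and 1.07 CPM in mutants and 3.51, 4.42 and 1.42 CPM in controls. Scrg1 had 1.51, 1.61 and 0.332 CPM in mutants and 1.59, 1.91 and 0.659 CPM in controls. In each of these 3 genes the replicate 3 library was the lowest of both genotypes, and none of them was among the lists. Dio2 overlaps Gm26512 on the opposite strand.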
